A study of Capra hircus with 6 samples.

Results

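The genes described here build and cross-link the basement membrane. They are PXDN, COL18A1, the collagen IV chains COL4A1 and COL4A2, the laminin chains LAMA4, LAMB1 and LAMC1, the nidogens NID1 and NID2, and the perlecan gene HSPG2. They were matched by gene symbol, and all 10 were found among the 16599 genes that carry values in the deposited table. All 10 passed the low-count filter, which kept 12665 genes for the fit; no test is given for PXDN and COL18A1. PXDN and COL18A1 were selected on measured values: PXDN for its near absence from the UCHL1 knockdown line, and COL18A1 as a gene with a large difference from control in the same data. Both are therefore given as a description. The other 8 genes were listed for their function as partners or substrates, with earlier results of these data known.

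A basement membrane is a thin sheet of matrix under epithelia and around vessels, muscle and the seminiferous tubules of the testis. Laminins assemble as trimers of an alpha, a beta and a gamma chain at the cell surface, and collagen IV forms a second network. In that second network, COL4A1 and COL4A2 chains wind into a common trimer. Peroxidasin, the product of PXDN, is a heme peroxidase that joins collagen IV molecules end to end through a sulfilimine bond, which stabilises the network. Nidogens and perlecan hold the laminin and collagen networks together. The tubular basement membrane is the surface on which spermatogonial stem cells rest in the animal.

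The RNA came from cultures of mGSCs-I-SB, labelled as spermatogonial stem cells of the goat, Capra hircus, and grown in DMEM/F12 with 10% fetal bovine serum. Each of 3 lines gave 2 libraries: shCON with a control hairpin RNA (genotype labelled WT), shUCHL1 with hairpin RNA against the ubiquitin hydrolase UCHL1, and shHSPA8 with hairpin RNA against the chaperone HSPA8. Neither the number of hairpins nor the number of clones behind each line is labelled, so an effect of the targeted gene and an effect of a given hairpin or line cannot be told apart. Whether replicate libraries are separate cultures is not labelled either, so the p-values reflect library-to-library spread that may be purely technical.

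Total counts ran from 1.57e+07 to 1.64e+07 per library. Levels are given as CPM, counts divided by library size after TMM scaling, and as the authors' FPKM, which also divides by transcript length, where genes are compared with each other. A gene was called changed at an adjusted p under 0.05 in edgeR's quasi-likelihood test over all genes. UCHL1 stood at 96.0 ± 2.36 CPM in shUCHL1 against 428 ± 32.3 CPM in shCON (SD, n = 2), and HSPA8 at 2579 ± 73.4 CPM in shHSPA8 against 4064 ± 67.9 CPM in shCON (SD, n = 2). The labelled cell type was checked against its markers. Of 15 germline markers 7 carried values, their summed level was 6.90 to 16.2 CPM per library, and the germline helicase DDX4 reached at most 1.96 CPM. ID4, another of them, stood at 1.96 and 3.31 CPM in shCON, 5.80 and 6.36 CPM in shUCHL1, and 10.2 and 8.79 CPM in shHSPA8. Of the 4 tested, ID4 alone was called. It was higher in shUCHL1 (log2 fold change 1.20, adjusted p = 0.0186 in edgeR's test) and in shHSPA8 (1.85, adjusted p = 0.0028). Over all genes 15.7% and 14.7% were called in these comparisons. Summed myoid and fibroblast markers stood at 17500 to 25990 CPM per library, with COL1A1 and COL3A1 leading them. The chi-square per degree of freedom between replicate counts, which is 1 for sampling noise alone, was 21.7 in shCON, 11.6 in shHSPA8 and 2.32 in shUCHL1. The fit nonetheless shares its estimate of spread among all lines. The p-values of shHSPA8 against shCON thus also draw on the quieter shUCHL1 libraries.

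PXDN had 138 and 199 counts in the shCON libraries, 1 and 4 in the shUCHL1 libraries, and 305 and 294 in the shHSPA8 libraries. As levels these are 8.74 and 12.2 CPM in shCON, 0.0611 and 0.240 CPM in shUCHL1, and 19.3 and 19.0 CPM in shHSPA8. The ranges of the 3 lines do not overlap: the transcript was almost missing from shUCHL1 and most abundant in shHSPA8. Over the pooled counts of each line, PXDN was 69.3-fold lower in shUCHL1 than in shCON, with an exact binomial 95% interval of 29.4 to 215 that covers counting error only. The fitted log2 fold change was -6.04 (SE 0.39). Without shUCHL1 replicate 1 it came to -5.42, without shUCHL1 replicate 2 to -7.26, and the fold rests on 5 reads in shUCHL1. In shHSPA8 the pooled counts were 1.82-fold higher than in shCON, with an interval of 1.59 to 2.09. As these are bulk libraries, fewer cells that express a gene and less RNA per cell cannot be told apart.

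**Figure D1:**
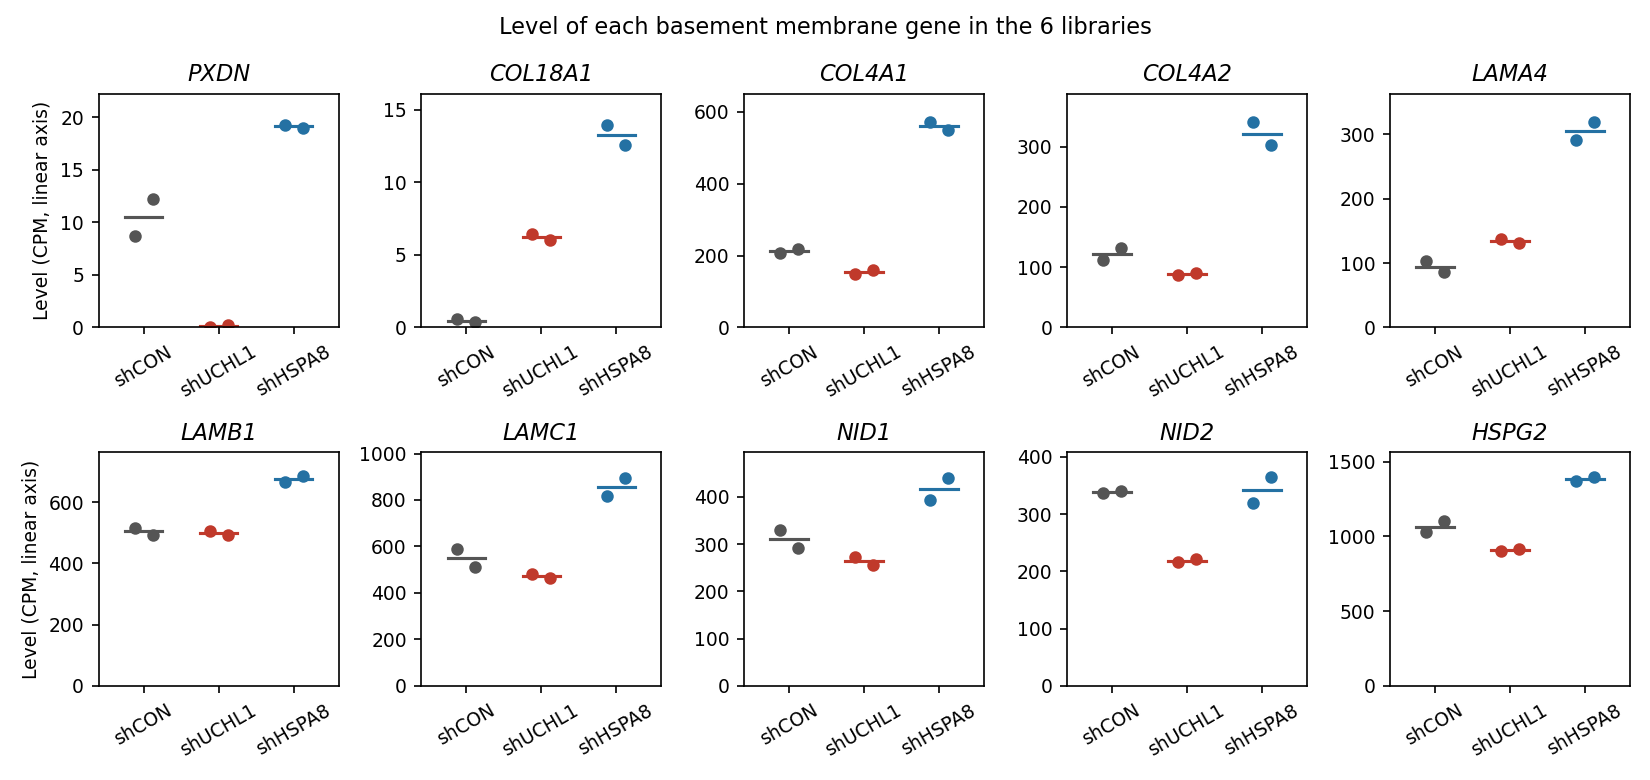
Level in CPM (linear axis from 0, a scale of its own for each gene) of the 10 genes in each of the 6 libraries, by line; points are libraries and bars are the mean of 2. PXDN lies near 0 in shUCHL1, COL18A1 lies near 0 in shCON, and for both collagen IV chains shHSPA8 lies far above the other lines.

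The collagen IV chains, the substrate of peroxidasin, were lower in shUCHL1, but by a small amount next to PXDN. COL4A1 stood at 207 and 219 CPM in shCON, 148 and 160.0 CPM in shUCHL1, and 571 and 549 CPM in shHSPA8. COL4A2 stood at 112 and 132 CPM in shCON, 87.1 and 90.3 CPM in shUCHL1, and 340.2 and 303 CPM in shHSPA8. For both chains the 3 lines kept the order shUCHL1, shCON, shHSPA8 with no overlap between libraries. In shUCHL1, COL4A1 fell 1.38-fold (log2 fold change -0.46, SE 0.08, adjusted p = 0.0116 in edgeR's test) and COL4A2 likewise 1.38-fold (-0.46, SE 0.11, adjusted p = 0.0343). Thus a line with 5 PXDN reads still carried 5092 COL4A1 reads and 2931 COL4A2 reads.

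In shHSPA8 the collagen IV chains rose 2.63-fold each, COL4A1 with an adjusted p of 1.3e-04 and COL4A2 with 3.6e-04 in edgeR's test (log2 fold change 1.40 for both, SE 0.08 and 0.11). The rises held their call in all 15 alternative analyses. The falls in shUCHL1 were less secure. Without shUCHL1 replicate 1 the adjusted p in edgeR's test was 0.165 for COL4A1 and 0.240 for COL4A2, and without shUCHL1 replicate 2 it was 0.0878 and 0.178. COL4A2 also missed the threshold without shCON replicate 2 (-0.34). In edgeR's test its adjusted p was 0.0699 with library-size scaling and 0.0528 with a correction for transcript length. With the replicate number added to the design (the replicate block) it was 0.0871.

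COL4A1 and COL4A2 are neighbours in the goat gene table of RefSeq assembly ARS1.2, as in other mammals, where they lie head to head. Their ratio hardly moved. COL4A1 FPKM over COL4A2 FPKM was 1.77 and 1.58 in shCON, 1.63 and 1.70 in shUCHL1, and 1.61 and 1.74 in shHSPA8, so all 3 lines overlapped while the level of either chain differed 3.6-fold between the knockdown lines. The remaining collagen IV chains were nearly silent: COL4A3, COL4A4, COL4A5 and COL4A6 had at most 9 counts in any library. PXDN FPKM over COL4A1 FPKM was 0.0440 and 0.0579 in shCON, 4.0e-04 and 0.0015 in shUCHL1, and 0.0350 and 0.0360 in shHSPA8. The low ratio in shUCHL1 restates the values on which PXDN was chosen. In shHSPA8 the ratio lay below that of shCON although PXDN itself was higher there.

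**Figure D2:**
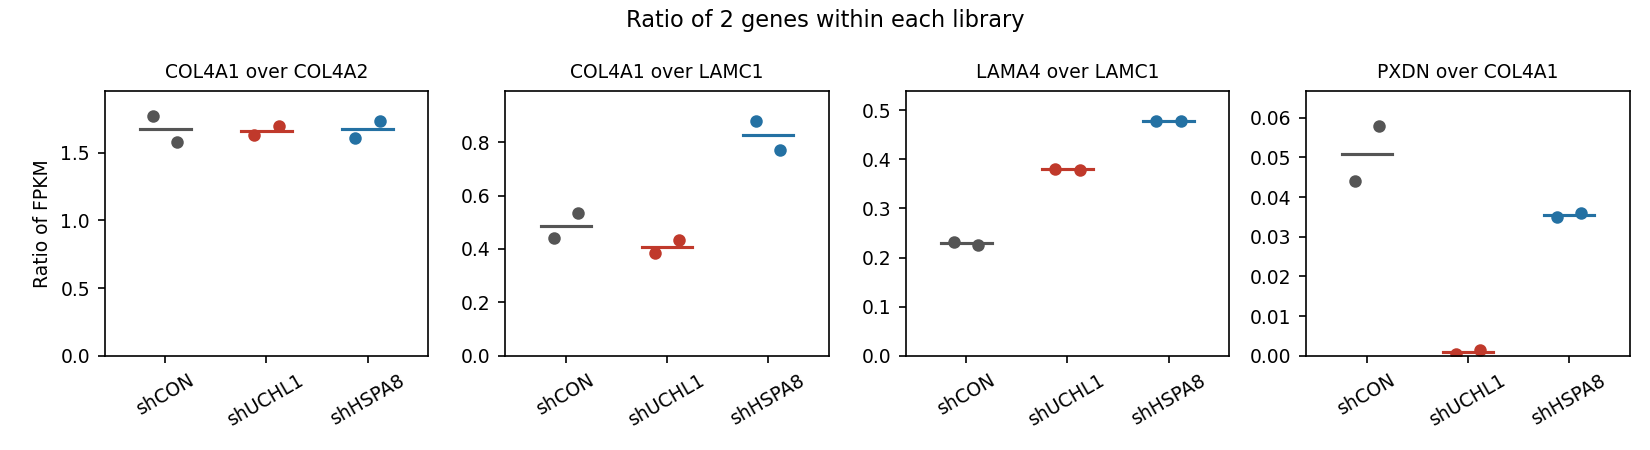
Ratio of the FPKM of 2 genes within each library (linear axes from 0), by line; points are libraries and bars are the mean of 2. COL4A1 over COL4A2 stays between 1.58 and 1.77 in every library, whereas LAMA4 over LAMC1 and PXDN over COL4A1 separate the 3 lines. COL4A1 over LAMC1 also separates them, with shUCHL1 replicate 2 (0.432) close to shCON replicate 1 (0.440). PXDN was chosen for its low level in shUCHL1.

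Of the 3 laminin chains among the 10 genes, the alpha chain LAMA4 had the largest fold changes against shCON and the beta chain LAMB1 the smallest. LAMA4, the alpha chain of mesenchymal and vascular laminins, stood at 103 and 86.2 CPM in shCON, 138 and 131 CPM in shUCHL1, and 292 and 319 CPM in shHSPA8. Both knockdown lines lay above control without overlap, with shHSPA8 highest. In shUCHL1 the rise of LAMA4 was 1.42-fold (log2 fold change 0.51, SE 0.11, adjusted p = 0.0218 in edgeR's test) and in shHSPA8 3.23-fold (1.69, SE 0.11, adjusted p = 1.6e-04). Its call in shUCHL1 was lost without shUCHL1 replicate 1 (log2 fold change 0.46) or replicate 2 (0.53), and with the replicate block (adjusted p = 0.0577 in edgeR's test).

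LAMB1 encodes the beta chain that most laminins of the tissue share. It stood at 517 and 492 CPM in shCON, 504 and 493 CPM in shUCHL1, and 665 and 684 CPM in shHSPA8. In shUCHL1 its libraries lay within the range of shCON, with a log2 fold change of -0.02 (SE 0.07, adjusted p = 0.910 in edgeR's test) whose sign turned under other scaling. In shHSPA8 it rose 1.34-fold (0.42, SE 0.07, adjusted p = 0.0107 in edgeR's test). That call was lost with only the shHSPA8 and shCON libraries in the fit (0.41, SE 0.10, adjusted p = 0.0588 in edgeR's test). It was also lost without either shUCHL1 library, which enter only through the shared spread, and without either shHSPA8 library.

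LAMC1, the common gamma chain, stood at 590.0 and 514 CPM in shCON, 483 and 465 CPM in shUCHL1, and 817 and 894 CPM in shHSPA8. The lines did not overlap, yet the shCON libraries differed from each other by more than shCON replicate 2 did from shUCHL1. In shUCHL1 the log2 fold change of LAMC1 was -0.22 (SE 0.10) and did not pass edgeR's test (adjusted p = 0.181). With a correction for transcript length it passed (-0.32, adjusted p = 0.0175 in edgeR's test). In the other 14 alternatives it did not, also with the replicate block added to that correction (-0.32, adjusted p = 0.0518 in edgeR's test). In shHSPA8 it rose 1.55-fold (0.63, SE 0.10, adjusted p = 0.0055 in edgeR's test), and that call held in all 15 alternatives.

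Levels of single chains relative to LAMC1 differed between lines. LAMA4 FPKM over LAMC1 FPKM was 0.233 and 0.225 in shCON, 0.381 and 0.377 in shUCHL1, and 0.478 and 0.477 in shHSPA8. LAMA4 does not stand for all alpha chains: LAMA5 was at 37.8 FPKM in shCON, 29.8 FPKM in shUCHL1 and 26.1 FPKM in shHSPA8, and moved the other way. LAMA4 was at 16.0, 24.1 and 51.1 FPKM, so LAMA5 was the more abundant of the pair in shCON and shUCHL1, and LAMA4 in shHSPA8. LAMB1 over LAMC1 was highest in shUCHL1 and lowest in shHSPA8, at 1.26 and 1.38 in shCON, 1.502 and 1.526 in shUCHL1, and 1.173 and 1.104 in shHSPA8. COL4A1 over LAMC1 was 0.440 and 0.534 in shCON, 0.385 and 0.432 in shUCHL1, and 0.878 and 0.772 in shHSPA8, so collagen IV stood highest relative to the laminin gamma chain in shHSPA8.

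The linker genes did not move as a block. NID2, the second nidogen, stood at 337 and 339 CPM in shCON, 217 and 221 CPM in shUCHL1, and 320.0 and 364 CPM in shHSPA8. The shUCHL1 libraries lay below all others, while shHSPA8 straddled shCON. NID2 fell 1.55-fold in shUCHL1 (log2 fold change -0.63, SE 0.09, adjusted p = 0.0045 in edgeR's test), the largest fall of the 8 tested genes. That call was lost without shUCHL1 replicate 1 (adjusted p = 0.0713 in edgeR's test) or replicate 2 (adjusted p = 0.0606). In shHSPA8 its log2 fold change was 0.02 (SE 0.09, adjusted p = 0.929 in edgeR's test), with a sign that turned under library-size scaling.

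NID1, the more widely expressed nidogen, stood at 330.4 and 291 CPM in shCON, 273 and 256 CPM in shUCHL1, and 392.5 and 441 CPM in shHSPA8. In shUCHL1 its log2 fold change was -0.23 (SE 0.10, adjusted p = 0.179 in edgeR's test). It passed only with the length correction, alone (-0.30, adjusted p = 0.0111 in edgeR's test) or with the replicate block (-0.30, adjusted p = 0.0449). In shHSPA8 it rose 1.34-fold (0.42, SE 0.10, adjusted p = 0.0333 in edgeR's test). Of the libraries, only shCON replicate 1 could be left out without losing that call (adjusted p from 0.0609 to 0.180 without each other library). NID1 FPKM over NID2 FPKM was 0.771 and 0.675 in shCON, 0.989 and 0.914 in shUCHL1, and 0.964 and 0.952 in shHSPA8. The ratio was thus higher in both knockdown lines, in shUCHL1 with a lower NID2 and in shHSPA8 with a higher NID1.

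HSPG2, the heparan sulfate proteoglycan perlecan, stood at 1027 and 1102 CPM in shCON, 905 and 917 CPM in shUCHL1, and 1372 and 1398 CPM in shHSPA8. At 14.0 kb by the ratio of counts to FPKM, it has the longest transcript of the 10 genes. Its log2 fold change in shUCHL1 was -0.22 (SE 0.07, adjusted p = 0.0902 in edgeR's test). Of the alternatives it passed only without shCON replicate 1 (-0.30). In shHSPA8 it rose 1.30-fold (0.38, SE 0.08, adjusted p = 0.0163 in edgeR's test). That call was lost with the length correction (0.28, adjusted p = 0.324 in edgeR's test) and without either shUCHL1 or either shHSPA8 library (adjusted p from 0.0789 to 0.0941).

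COL18A1 encodes collagen XVIII, a basement membrane collagen with heparan sulfate chains whose C-terminal fragment is endostatin. It had 9 and 6 counts in shCON, 105 and 100 in shUCHL1, and 221 and 194 in shHSPA8. As levels these are 0.570 and 0.367 CPM in shCON, 6.41 and 5.995 CPM in shUCHL1, and 14.0 and 12.5 CPM in shHSPA8. It was close to absent from the control line and present in both knockdown lines, so the line that stands apart is shCON and not shUCHL1 as for PXDN. Over pooled counts it was 13.3-fold higher in shUCHL1 (exact binomial 95% interval 7.87 to 24.2) and 28.4-fold higher in shHSPA8 (17.0 to 51.2) than in shCON, where the comparison rests on 15 reads. Even at its highest, COL18A1 stayed a minor transcript of this group, at 3.04 FPKM in shHSPA8 against 88.1 FPKM for COL4A1. COL15A1, the collagen most like it, was at a higher level and is described with the wider list.

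Counted over the 8 tested genes, 1 was higher and 3 were lower in shUCHL1 than in shCON (LAMA4 higher; COL4A1, COL4A2 and NID2 lower), with a median log2 fold change of -0.23 against 0.01 over all genes tested. Over all genes 15.7% were called in that comparison, 8.54% higher and 7.15% lower. Without shUCHL1 replicate 1 or replicate 2, COL4A1, COL4A2, LAMA4 and NID2 lost their calls. Fewer genes were then called over all genes as well. The log2 fold changes of these 4 were -0.42, -0.45, 0.46 and -0.63 without replicate 1. Without replicate 2 they were -0.54, -0.50, 0.53 and -0.66. In shHSPA8 7 of the 8 were higher and none lower than in shCON (NID2 was not called), with a median of 0.53 against -0.00317 over all genes. The background there was 14.7% called, 8.66% higher and 6.02% lower. With only the 2 lines in the fit, the count of 7 became 4 of 8. Over all genes that fit called 1104 of 12359, against 1859 of 12665 with all lines in the fit. LAMB1 (adjusted p = 0.0588 in edgeR's test), NID1 (0.0935) and HSPG2 (0.0833) were no longer called there. These genes also lost their calls without either shUCHL1 or either shHSPA8 library. These comparisons share the shCON libraries.

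Set directly against shHSPA8, shUCHL1 had lower levels of all 8 tested genes, with a median log2 fold change of -0.75 against 0.02 over all genes. The background was 14.6% called, 6.20% higher and 8.35% lower, and the libraries are those of the comparisons above. COL4A1 was 3.64-fold lower (log2 fold change -1.86, SE 0.09, adjusted p = 1.0e-04 in edgeR's test) and COL4A2 3.62-fold lower (-1.86, SE 0.11, adjusted p = 3.1e-04). LAMA4 was 2.27-fold lower (-1.18, SE 0.11, adjusted p = 0.0013 in edgeR's test) and LAMC1 1.80-fold lower (-0.85, SE 0.10, adjusted p = 0.0026). NID1, NID2 and HSPG2 differed by 1.52-fold to 1.58-fold and LAMB1 by 1.35-fold. These 4 lost their calls without shUCHL1 replicate 1 or replicate 2, with adjusted p from 0.0663 to 0.156 in edgeR's test. LAMB1 also lost its call without shHSPA8 replicate 1 (adjusted p = 0.0633 in edgeR's test) or replicate 2 (adjusted p = 0.0689).

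**Figure D3:**
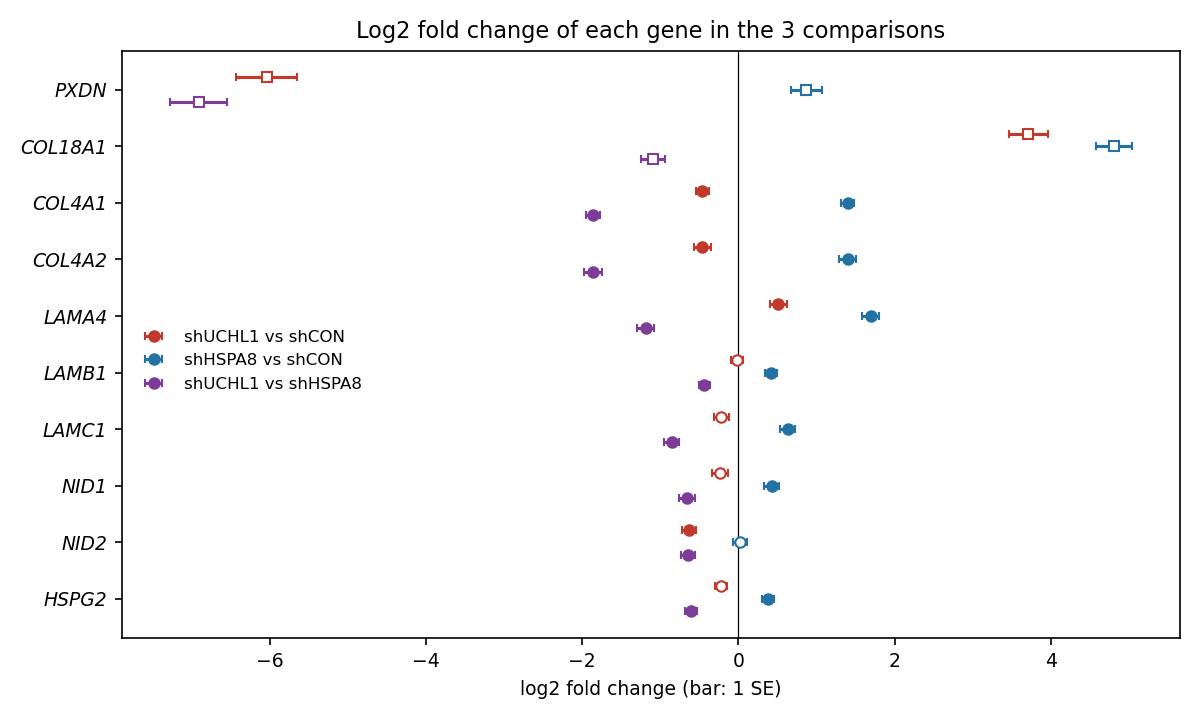
Log2 fold change (x axis, bar 1 SE) of the 10 genes in the 3 comparisons; filled circles are called at an adjusted p under 0.05, open circles are not, and open squares (PXDN and COL18A1) were not tested. In shUCHL1 against shCON PXDN lies at -6.04 and its substrate chains COL4A1 and COL4A2 at -0.46. In shUCHL1 against shHSPA8 PXDN lies at -6.91 and both chains at -1.86.

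Ordered by FPKM, LAMB1 led in every line, at 92.2 ± 2.38 in shCON, 96.1 ± 1.43 in shUCHL1 and 121.7 ± 1.55 in shHSPA8 (SD, n = 2). In shCON it was followed by NID2 (75.7), HSPG2 (74.9) and LAMC1 (70.0), of which neighbours overlapped, and then by NID1, COL4A1, COL4A2, LAMA4, PXDN and COL18A1, each below the one before. In shUCHL1 NID2 stood behind HSPG2 and LAMC1 at 51.6 FPKM and LAMA4 passed COL4A2, with no overlap between neighbours. In shHSPA8 COL4A1 came next after HSPG2 at 88.1 FPKM, ahead of both nidogens, while NID2 and NID1, COL4A2 and LAMA4, and PXDN and COL18A1 overlapped as neighbours. The authors' deposited table gives log2 ratios of -6.14 for PXDN, -0.49 for COL4A1 and -0.48 for COL4A2 in shUCHL1 over shCON, next to -6.04, -0.46 and -0.46 fitted here.

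The genes whose pattern was most like that of PXDN were sought by the Pearson coefficient of log2 CPM over the 6 libraries, among 9718 genes at a mean of at least 5 CPM. The first 5 were TRNT1, ATP6AP1L, ARPC5, ARAP3 and RILPL2, with coefficients of 0.994 to 0.995. ATP6AP1L stood at 47.0 and 44.8 CPM in shCON, 20.7 and 22.7 CPM in shUCHL1, and 50.1 and 51.0 CPM in shHSPA8. None of the 5 was a basement membrane gene of the lists used here, and each remained well expressed in shUCHL1. What they share with PXDN is a lower level in shUCHL1, the trait on which PXDN was chosen, and not the size of its difference. For ARAP3 the shCON and shHSPA8 libraries overlapped. Among the other 9 basement membrane genes, the coefficient with PXDN over the 6 libraries was 0.974 for NID2, 0.854 for HSPG2, 0.791 for NID1, 0.781 for COL4A1, 0.776 for COL4A2, 0.753 for LAMC1, 0.618 for LAMB1, 0.336 for LAMA4 and -0.164 for COL18A1. With 6 libraries from 3 lines, these coefficients mainly describe the order and spacing of the lines.

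Further components of basement membranes were taken from a list of 28 genes, of which 27 carried values and 18 were tested. In shUCHL1 8 of 18 were higher and 2 lower than in shCON, with a median log2 fold change of 0.66, and in shHSPA8 8 were higher and 4 lower, with a median of 0.40. Over all genes 8.54% were higher and 7.15% lower in shUCHL1, and 8.66% and 6.02% in shHSPA8, with medians of 0.01 and -0.00317. LAMA3, an alpha chain of epithelial laminins, rose from 1.28 ± 0.0135 CPM in shCON to 8.87 ± 0.182 CPM in shUCHL1 (log2 fold change 2.79, adjusted p = 2.9e-04 in edgeR's test) and to 5.02 ± 0.396 CPM in shHSPA8 (1.97, adjusted p = 8.1e-04). LAMA5, a major alpha chain here, fell from 247 ± 13.3 CPM in shCON to 184.5 ± 6.18 CPM in shUCHL1 (-0.42, adjusted p = 0.0268 in edgeR's test) and 173 ± 14.9 CPM in shHSPA8 (-0.51, adjusted p = 0.0129). Alpha chains thus differed in direction within both knockdown lines. COL15A1, the collagen XV gene, rose from 60.6 ± 1.62 CPM in shCON to 113 ± 4.88 CPM in shUCHL1 (0.90, adjusted p = 0.0012 in edgeR's test) and to 205 ± 10.5 CPM in shHSPA8 (1.76, adjusted p = 7.3e-05).

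The calcium-binding matrix gene SMOC1 rose by 2.11 on the log2 scale in shUCHL1 (adjusted p = 3.6e-04 in edgeR's test) and by 3.66 in shHSPA8 (adjusted p = 3.5e-05). SMOC2 fell by 2.19 in shHSPA8 (adjusted p = 6.4e-04 in edgeR's test), as did FBLN1, the fibulin-1 gene, by 1.45 (adjusted p = 2.6e-04). In shUCHL1 the laminin chain LAMC3 fell by 1.07 (adjusted p = 0.0107 in edgeR's test), and the integrin ligand NPNT rose by 2.08 from under 1 CPM in shCON (adjusted p = 0.0225). LAMC3, NPNT and LAMA5 lost their calls in shUCHL1 without either shUCHL1 library, and NPNT also without shCON replicate 2. Over all alternatives the adjusted p in edgeR's test or DESeq2 ran up to 0.106 for LAMC3, 0.145 for NPNT and 0.213 for LAMA5. In shHSPA8 LAMA5 lost its call without shHSPA8 replicate 1 (adjusted p = 0.0947 in edgeR's test).

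Genes that fold, export and cross-link collagen IV came from a list of 24, of which 21 carried values and were tested. Of these 21, 10 were higher and none lower in shHSPA8 (median log2 fold change 0.40), and 3 were higher and 1 lower in shUCHL1 (median 0.01). Over all genes 14.7% were called in shHSPA8 and 15.7% in shUCHL1, and the 4 of 21 called in shUCHL1 lie near that share. P4HA1, a prolyl hydroxylase subunit that stabilises the triple helix, rose by 0.63 in shUCHL1 (adjusted p = 0.0134 in edgeR's test) and by 0.79 in shHSPA8 (adjusted p = 0.0053). P4HB, its partner subunit, rose by 0.37 in shUCHL1 (adjusted p = 0.0230 in edgeR's test) and by 0.38 in shHSPA8 (adjusted p = 0.0211). LOXL2, a lysyl oxidase that also cross-links collagen IV, rose by 0.41 in shUCHL1 (adjusted p = 0.0216 in edgeR's test), from 273 ± 16.2 CPM in shCON to 362.5 ± 2.62 CPM, and by 0.44 in shHSPA8 (adjusted p = 0.0172). In shHSPA8 P4HB and LOXL2 lost their calls without either shUCHL1 library and without shHSPA8 replicate 1, and P4HB also without shHSPA8 replicate 2 (adjusted p over all alternatives up to 0.111 for P4HB and 0.118 for LOXL2). QSOX1, a disulfide-forming oxidase, fell by 0.85 in shUCHL1 (adjusted p = 0.0092 in edgeR's test). The shUCHL1 calls of P4HA1, P4HB, LOXL2 and QSOX1 were lost without either shUCHL1 library, with adjusted p reaching 0.0934 for QSOX1 and 0.254 for P4HB over all alternatives in edgeR's test or DESeq2. In shHSPA8 LOX, a lysyl oxidase, rose by 0.79 and PLOD2, a lysyl hydroxylase, by 0.70 (adjusted p = 0.0180 and 0.0190 in edgeR's test), and without shHSPA8 replicate 2 neither passed (adjusted p = 0.0889 and 0.0971).

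Receptors for laminin and collagen IV showed no common direction. All 15 listed were tested; 1 was higher and 3 were lower in shUCHL1 (median log2 fold change -0.17), and 2 were higher and 3 lower in shHSPA8 (median -0.18), next to 15.7% and 14.7% called in either direction over all genes. In shUCHL1 ITGA2, the collagen-binding integrin alpha2 chain, fell from 26.3 ± 5.65 CPM to 10.2 ± 0.178 CPM (-1.37, adjusted p = 0.0048 in edgeR's test). ITGB1, the beta chain common to these integrins, fell by 0.63 (adjusted p = 0.0164 in edgeR's test) and ITGA3, a laminin-binding alpha chain, by 0.38 (adjusted p = 0.0400). The 1 higher gene, SDC2, lay under the level set for naming and is named after its values were seen. In shHSPA8 ITGA1, the alpha1 chain that binds collagen IV, rose by 1.03 (adjusted p = 0.0190 in edgeR's test) and ITGA3 fell by 0.65 (adjusted p = 0.0052). SDC1, a heparan sulfate proteoglycan, rose by 0.40 (adjusted p = 0.0260 in edgeR's test), while the collagen receptor DDR1 fell by 0.51 and the laminin receptor BCAM by 0.42 (adjusted p = 0.0199 and 0.0426). Without either shUCHL1 library ITGB1 and ITGA3 lost their calls in shUCHL1, and DDR1, SDC1 and BCAM theirs in shHSPA8. ITGA3 in shUCHL1, and BCAM and SDC1 in shHSPA8, each lost their call without 5 of the 6 libraries, and ITGA1 and DDR1 theirs without shHSPA8 replicate 2. The adjusted p over all alternatives ran up to 0.0836 for ITGA1, 0.110 for ITGB1, 0.129 for DDR1, 0.155 for SDC1, 0.186 for BCAM and 0.314 for ITGA3 in shUCHL1, in edgeR's test or DESeq2.

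**Figure D4:**
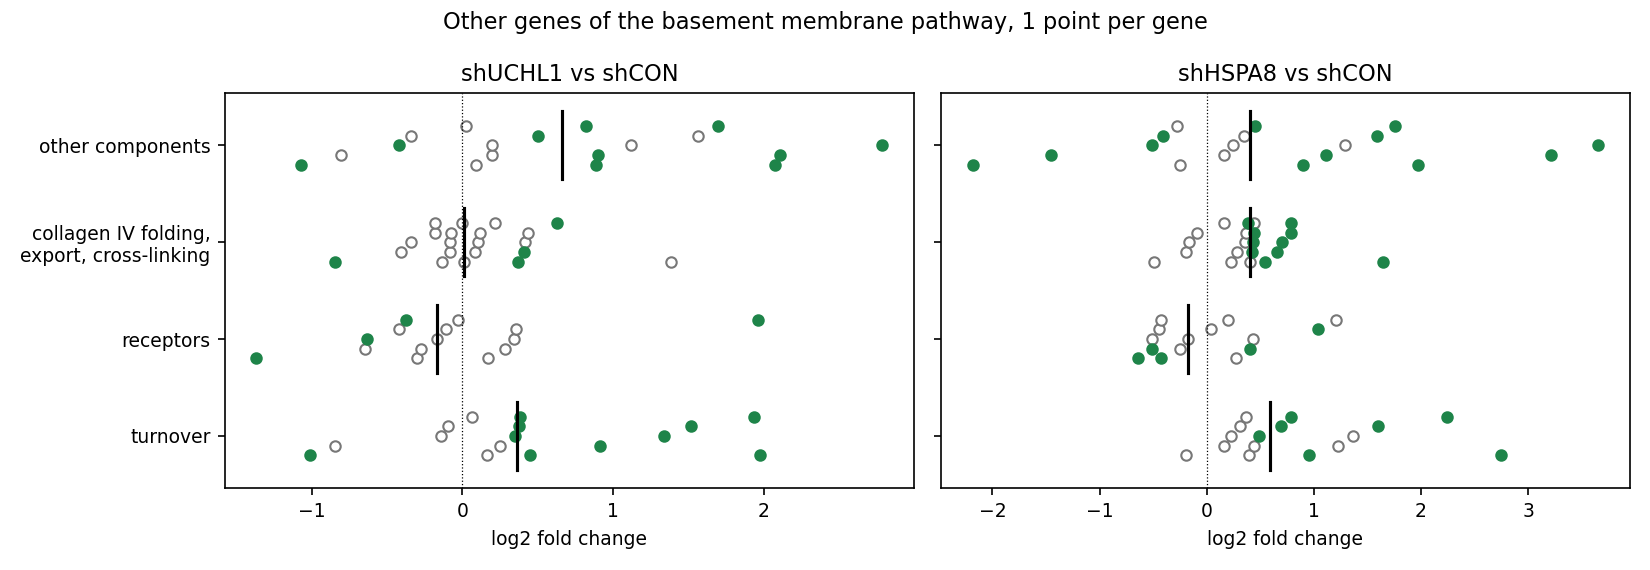
Log2 fold change against shCON of the tested genes of 4 lists, 1 point per gene, with a vertical bar at each list's median; filled points are called at an adjusted p under 0.05 and vertical offsets only separate points. Collagen IV folding genes centre on 0.01 in shUCHL1 and on 0.40 in shHSPA8, and receptors centre on -0.17 and -0.18.

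Genes of basement membrane turnover came from a list of 17, of which 16 were tested; 9 of the 16 were higher and 1 lower in shUCHL1 (median log2 fold change 0.36), with 7 higher and none lower in shHSPA8 (median 0.59). The shares over all genes were 8.54% higher and 7.15% lower in shUCHL1, and 8.66% and 6.02% in shHSPA8. The list mixes proteases with their inhibitors TIMP1, TIMP2 and TIMP3, which are named after their values were seen. Among the genes called higher were TIMP2 and TIMP3 in shUCHL1 (log2 fold change 0.35 and 0.38). In shHSPA8 they included TIMP1 and TIMP2 (0.69 and 0.49). MMP2, a gelatinase that cleaves collagen IV, rose from 340 ± 34.4 CPM in shCON to 859 ± 11.4 CPM in shUCHL1 (1.34, adjusted p = 3.2e-04 in edgeR's test) and to 1612 ± 86.9 CPM in shHSPA8 (2.25, adjusted p = 3.9e-05). CTSL, a cysteine protease that can release endostatin from collagen XVIII, rose by 1.94 in shUCHL1 (adjusted p = 0.0013 in edgeR's test) and by 1.60 in shHSPA8 (adjusted p = 0.0027). MMP3, the matrix protease stromelysin, rose by 1.52 in shUCHL1 (adjusted p = 4.7e-04 in edgeR's test) and by 2.75 in shHSPA8 (adjusted p = 3.5e-05). HPSE, which cuts the heparan sulfate of perlecan, rose by 1.98 in shUCHL1 (adjusted p = 0.0308 in edgeR's test), a call lost without either shUCHL1 library (adjusted p up to 0.156). The HPSE change (SE 0.47) rests on 31 and 7 reads in the shCON libraries and 84 and 71 in the shUCHL1 libraries. ADAMTS1, a metalloprotease of proteoglycans, fell by 1.01 in shUCHL1 (adjusted p = 0.0013 in edgeR's test).

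Markers of other cell types differed between the lines to unequal degrees. The 8 endothelial markers summed to 4.94 and 6.98 CPM in shCON, 10.8 and 9.77 CPM in shUCHL1, and 10.9 and 10.1 CPM in shHSPA8, with PECAM1 at most 0.673 CPM and CDH5 at most 1.65 CPM. Of the 5 tested endothelial markers 1 was called in shUCHL1 and 2 in shHSPA8, all higher, next to 15.7% and 14.7% of all genes. The called genes had few reads. VWF had 15 in shCON and 39 in shUCHL1, while KDR had 13 and EGFL7 97 in shCON against 45 and 202 in shHSPA8. The endothelial sums stand beside 86.2 to 319 CPM for LAMA4, a gene also made by endothelium. The 10 myoid and fibroblast markers summed to 17500 and 19070 CPM in shCON, 21550 and 22110 CPM in shUCHL1, and 25990 and 25680 CPM in shHSPA8. Of them 2 were higher and 4 lower in shUCHL1, and 3 higher and none lower in shHSPA8, where 15.7% and 14.7% of all genes were called. The 4 that fell in shUCHL1 were the contractile genes ACTA2, TAGLN, CNN1 and DES, and COL3A1 and DCN rose in both lines. Of 9 Sertoli cell markers 7 carried values, and they summed to 180.2 and 188 CPM in shCON, 136 CPM in both shUCHL1 libraries, and 92.7 and 91.9 CPM in shHSPA8. Epithelial markers summed to 23.6 and 26.3 CPM in shCON, 5.19 and 4.98 CPM in shUCHL1, and 8.66 and 7.76 CPM in shHSPA8, with KRT8 leading in shCON. KRT8 and KRT18 carried that fall, while EPCAM and CDH1 rose by 1.16 and 3.13 in shUCHL1 (adjusted p = 0.0198 and 0.0109 in edgeR's test). Their means reached at most 2.79 CPM for EPCAM and 0.605 CPM for CDH1 in any line. The CDH1 change rests on 1 read in each shCON library and 10 in each shUCHL1 library. The rises of EPCAM and CDH1 lost their calls without either shUCHL1 library or shCON replicate 2 and with DESeq2 (adjusted p up to 0.148 and 0.111). Macrophage markers ran from 37.4 to 67.0 CPM, nearly all of it CD14. Of the 2 tested, CD14 was called higher in shHSPA8 (0.70, adjusted p = 0.0066 in edgeR's test), and none was called in shUCHL1. The 1 Leydig marker with values ran from 0.855 to 1.45 CPM, with no call. The part of any of these cell types in the levels of the 10 genes was not tested.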

How the data were processed

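The authors deposited 1 table of 33229 genes, of which 16630 are blank and 16599 carry values. Per the file headers it gives, for each library, a read count and an FPKM value. Some deposited read counts have decimal fractions, so they are treated here as estimated (expected) counts and were rounded before testing. FPKM values were used as the authors deposited them. The deposited table further holds the authors' mean expected counts per line and, for every 2 lines, their log2 ratio with its p-value. Of these, the log2 ratios alone are quoted. The submitters' processing notes name Trimmomatic 0.36, a read trimmer. Which aligner, counter, genome build and strand mode the authors used is not given in the sources used here, so reads shared by paralogous or overlapping genes may have been split in an unrecorded way.

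Counts were filtered with filterByExpr, scaled with TMM (factors 0.966 to 1.04) and tested with edgeR 4.0.16 in R 4.3.3 (glmQLFit, glmQLFTest), in 1 fit of all 6 libraries whose design held the line alone. P-values were adjusted by Benjamini-Hochberg over all 12665 genes per comparison. SE is the log2 fold change over the square root of F. The code was tested on simulated data. Transcript length is the ratio of counts to FPKM. Intervals for pooled counts are exact binomial and cover counting error only. The alternatives were DESeq2 1.42.0, RLE or library-size scaling, no filter or at least 5 CPM in 2 libraries, fits of only the lines compared, a replicate block, a length correction by lowess offsets, both together, and leaving out each library.

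The 10 genes and the lists were chosen with earlier results of these data known. Genes named from a list were, per comparison with shCON, up to 3 called higher and 3 lower with the largest change and a mean of at least 1 CPM. For PXDN the 5 genes closest in Pearson coefficient were named. No set test was made: lists are given as counts and medians. Cell types were read from fixed marker lists. All gene IDs of the 10 genes were found in the RefSeq table of assembly ARS1.2, used for names and neighbours only.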

Additional observations from a re-analysis of the deposited data

How the results depend on the processing

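Of the 8 tested genes, edgeR called 4 in shUCHL1 against shCON, 7 in shHSPA8 against shCON and 8 between the knockdown lines. Leaving out 1 library gave 0 to 5, 4 to 7 and 4 to 8. With the fit limited to the lines compared, 4 were called in shHSPA8. Of the 70 tested genes of the wider lists, 28, 34 and 30 were called, and leaving out 1 library gave 8 to 34, 21 to 38 and 9 to 41; with only the lines compared, 22 were called in shHSPA8. With the replicate block, 2 of 8 members were called in shUCHL1 and 4 of 8 in shHSPA8, and 17 wider genes were called in shUCHL1 and 17 between the knockdown lines. In shUCHL1 the members no longer called with the block were COL4A2 (adjusted p = 0.0871 in edgeR's test, 0.0854 with the length correction added) and LAMA4 (0.0577), and in shHSPA8 LAMB1 (0.0508), NID1 (0.0890) and HSPG2 (0.0633). Whether the replicate numbers pair the libraries is not labelled. Deviations of same-numbered libraries from their line means correlated at 0.23 for shCON with shUCHL1, -0.54 for shCON with shHSPA8 and -0.23 for shUCHL1 with shHSPA8. With 2 libraries a line, the deviations within a line mirror each other, so these values cannot decide whether the libraries are paired. Where a library is left out, its partner is assumed to vary like the other lines.

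Over all genes, 1987, 1859 and 1843 were called, and leaving out 1 library gave 528 to 2615, 920 to 2416 and 257 to 3083. Fits of only the lines compared called 1104 in shHSPA8 and 3116 between the knockdown lines, the replicate block 1230, 1131 and 923, and the length correction 2885 between the knockdown lines. The sign turned for the smallest differences. For LAMB1 in shUCHL1 the log2 fold change was 0.061 with library size only and 0.0022 with the filter at 5 CPM. For NID2 in shHSPA8 it was -0.0073 with library size only and ran from -0.080 to 0.11 when 1 library was left out. The cause was not tested. Library-size scaling moved the median of all genes to 0.09 in shUCHL1 and 0.12 between the knockdown lines, and in shUCHL1 1368 of 2009 called genes were then higher, against 1082 of 1987; between the knockdown lines 1339 of 2079 were higher, against 785 of 1843. With counts of 1 and 4 in shUCHL1, the depth does not fix the size of the PXDN difference.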
